A study of Mus musculus with 6 samples.

Results

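The transcription factor NF-kB and the inflammatory mediators it controls were followed in the liver of mice fed 2 solvent fractions, in a series named for Boswellia serrata, the tree that yields Indian frankincense. The set was 10 genes, taken by symbol for their place in the pathway: Nfkb1, Rela, Nfkbia, Tnfaip3, Icam1, Vcam1, Ccl2, Cxcl1, Il1b and Tnf. The choice of these symbols was made with earlier results of these data known. Every probe set that the platform annotation paired with one of these symbols alone was taken, and probe sets with several symbols were not searched. No probe set was paired with the symbol Nfkb1 alone, and this gene was not analysed here. The rule gave 14 of 22690 probe sets, for 9 of 12393 genes. Of these, 12 probe sets for 7 genes were bright enough to be tested, among 14755 probe sets for 9209 genes in all. Ccl2 and Tnf were too dim and are given as values.

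Liver total RNA was hybridised to 6 Affymetrix arrays, and the mice were of the Swiss-Webster stock. The control diet, fraction 1 (a hexane fraction) and fraction 2 (a methanol fraction) each had 2 arrays. Each fraction was mixed into the diet at 1% and was fed for 21 days. The labels give neither sex, age nor dose per animal, name no inflammatory challenge, and do not say whether replicates were separate animals or pools, so that p-values reflect no more than the spread of these samples, which may be technical.

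NF-kB is a family of dimers that wait in the cytoplasm, bound by inhibitors of the IkB family. Receptors for tumour necrosis factor, interleukin-1 and bacterial products activate a kinase complex that marks IkB for destruction, and the freed dimers enter the nucleus and switch on genes of inflammation, adhesion and cell survival. Among their targets are their own inhibitors, Nfkbia and Tnfaip3, which close a feedback loop. In liver the pathway is known from the acute phase response of hepatocytes and from the cytokines of Kupffer cells, the resident macrophages. The gum resin of the tree has a traditional use against inflammation.

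Feedback and mediator genes of the pathway carry NF-kB motifs near their start sites, so the upstream DNA is shown for those in which one was found. The 250 bases before the start site were read from RefSeq promoter sequences of build GRCm38.p6 for 7 of the 9 genes, Rela, Nfkbia, Tnfaip3, Icam1, Cxcl1, Il1b and Tnf. For Rela and Il1b this start lies inside the listed span of the gene, so the window overlaps the gene. Both strands were searched for the NF-kB consensus and for its symmetric core GGAATTTCC, a motif that overlaps the consensus and was chosen after the sequences had been seen. The windows of Nfkbia, Tnfaip3, Icam1 and Cxcl1 held a match. They are printed 5′ to 3′ on the gene's strand, ending at the base before the start, with matches in capitals.

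Nfkbia, chr12:55492648-55492897, minus strand: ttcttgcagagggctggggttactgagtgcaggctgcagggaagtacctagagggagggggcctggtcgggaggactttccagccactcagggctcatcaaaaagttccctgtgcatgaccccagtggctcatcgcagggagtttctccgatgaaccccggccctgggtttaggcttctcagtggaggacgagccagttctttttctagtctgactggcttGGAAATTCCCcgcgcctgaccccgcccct

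Tnfaip3, chr10:19015411-19015660, minus strand: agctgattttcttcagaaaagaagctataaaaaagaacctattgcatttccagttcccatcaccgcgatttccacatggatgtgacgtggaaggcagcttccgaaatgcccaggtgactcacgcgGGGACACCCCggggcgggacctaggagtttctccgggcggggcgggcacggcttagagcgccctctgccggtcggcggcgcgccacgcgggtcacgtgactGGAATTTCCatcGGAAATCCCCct

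Icam1, chr9:21015690-21015939, plus strand: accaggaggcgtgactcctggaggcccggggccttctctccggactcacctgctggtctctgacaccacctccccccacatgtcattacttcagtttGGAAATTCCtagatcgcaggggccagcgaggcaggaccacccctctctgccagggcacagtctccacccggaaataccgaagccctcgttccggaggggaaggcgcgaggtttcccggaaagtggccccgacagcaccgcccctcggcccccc

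Cxcl1, chr5:90890995-90891244, plus strand: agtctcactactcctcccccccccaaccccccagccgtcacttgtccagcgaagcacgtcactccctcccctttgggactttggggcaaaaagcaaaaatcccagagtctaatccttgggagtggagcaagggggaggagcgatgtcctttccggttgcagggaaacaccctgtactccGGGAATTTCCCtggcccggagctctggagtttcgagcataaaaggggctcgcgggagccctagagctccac

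In Nfkbia, which encodes the inhibitor IkB-alpha, 1 consensus match lay 29 to 20 bases before the start, with the core inside it, on the opposite strand. In Tnfaip3, which encodes the ubiquitin-editing enzyme A20, consensus matches lay at 125 to 116 and 12 to 3 bases and a core match at 24 to 16 bases before the start. Icam1 had a core match alone, 153 to 145 bases before the start on the opposite strand. In Cxcl1, 2 overlapping consensus matches spanned 71 to 61 bases before the start and enclosed a core match. The consensus was found in 3 of the 7 genes and in 7.25% of 32851 windows of this length over all genes. The core was found in 4 of the 7 and in 0.286% of all windows. Because the core was chosen after these windows had been seen, its 2 shares cannot serve as a test of enrichment. Nor can those of the consensus, because the genes were taken for their place in the pathway. Both motifs are also counted by gene in the set and by window over all genes. The windows of Rela, Il1b and Tnf, and a second start of Tnfaip3, held neither motif. These matches describe the sequence and do not show that a site was bound.

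None of the genes was shown to change with either fraction. With limma, 0 of 7 tested genes passed an adjusted p of 0.05 (Benjamini-Hochberg over all tested probe sets) in any of the 3 comparisons, and 0 of 7 reached an unadjusted p under 0.05. Log2 fold changes of the 7 genes ran from -0.16 (Il1b) to 0.49 (Icam1) after fraction 1 and from -0.40 (Il1b) to 0.45 (Cxcl1) after fraction 2. Which gene stood highest depended on single arrays: without control replicate 2, Tnfaip3 stood at 1.05 and 0.99, above Icam1 (0.67) after fraction 1 and Cxcl1 (0.75) after fraction 2. Without fraction 1 replicate a, Vcam1 (0.46) stood above Icam1 (0.37) after fraction 1. Over all 9209 genes, 0.738% passed the adjusted threshold for fraction 1 against control, 0.119% for fraction 2 and 0% between the fractions. At the unadjusted threshold these shares were 12.9%, 7.23% and 7.96%. The 95% intervals given for each gene say how large a change the arrays would still allow. Both fractions were set against the same 2 control arrays, so their comparisons with control are not independent.

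**Figure D1:**
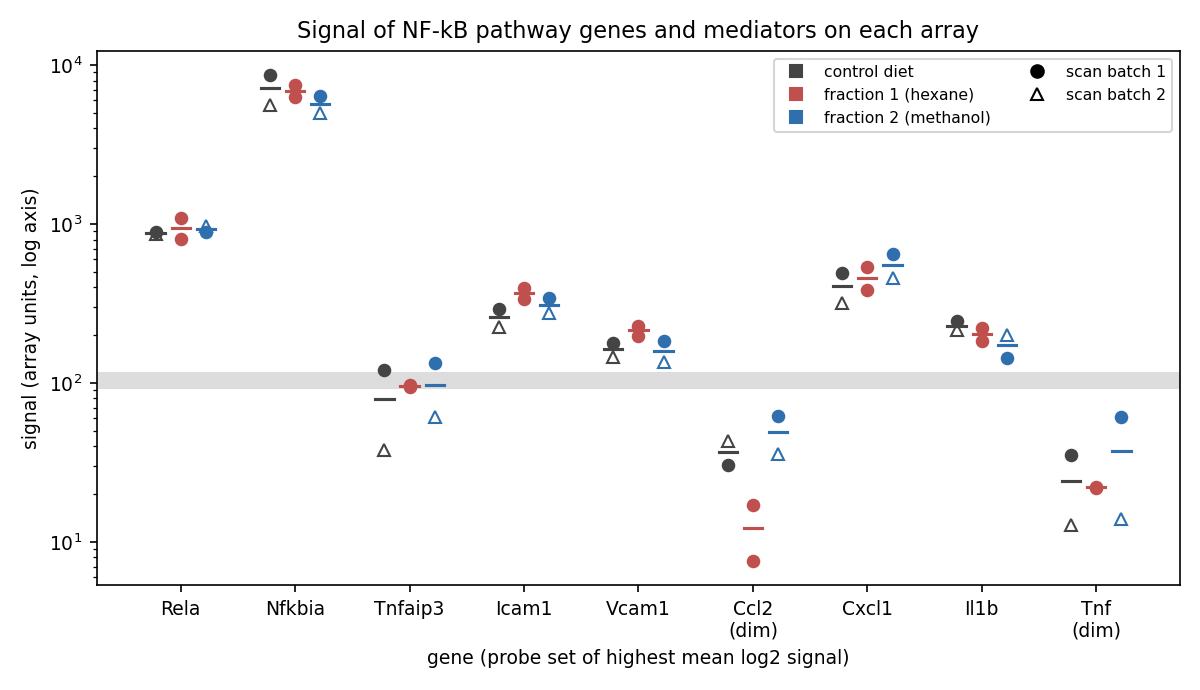
Signal in array units on a log axis for the 9 genes with a probe set, 1 point per array (circles for scan batch 1, open triangles for scan batch 2), with control, fraction 1 and fraction 2 side by side and a bar at each group's mean of 2 arrays. The grey band is the range over arrays of the 40th percentile of signal, 92.5 to 116 array units. Ccl2 and Tnf lie below the band on every array, and Tnfaip3 reaches from 38.2 to 133 array units.

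Rela encodes p65, the subunit that carries the activation domain of the classical NF-kB dimer. Its signal was 864.8 and 888.1 array units in control, 802.1 and 1090 after fraction 1 and 970.7 and 896.2 after fraction 2. The control arrays lay between the fraction 1 arrays, while both fraction 2 arrays lay just above both controls. Its log2 fold change was 0.09 ± 0.20 (SE) for fraction 1 (95% interval -0.37 to 0.56, adjusted p = 0.914 with limma). For fraction 2 it was 0.09 as well, with an interval of -0.38 to 0.55 (adjusted p = 0.935), and between the fractions it was 0.00 (-0.46 to 0.47). The means of 876 ± 16.5, 946 ± 203 and 933 ± 52.7 array units (SD, n = 2) for control, fraction 1 and fraction 2 have no order beyond this spread.

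Nfkbia, the gene of the IkB that is degraded and then resynthesised when the pathway fires, had 4 probe sets. Probe set 1420088_at, highest in mean log2 signal, stood for the gene and read 5644 and 8658 array units in control. It read 6292 and 7496 after fraction 1 and 5015 and 6413 after fraction 2. The controls spanned both fraction 1 arrays, and only fraction 2 replicate a lay below both controls. The log2 fold change was -0.03 ± 0.22 (SE) for fraction 1 (interval -0.53 to 0.48, adjusted p = 0.98) and -0.30 ± 0.22 for fraction 2 (interval -0.81 to 0.20, adjusted p = 0.8). Between the fractions it was 0.28, from -0.23 to 0.78 (adjusted p = 0.755). Group means were 7151 ± 2131, 6894 ± 851 and 5714 ± 988 array units (SD, n = 2), with fraction 2 lowest and no neighbours apart beyond their spread.

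The other 3 probe sets of Nfkbia had no common sign for fraction 1. Probe set 1449731_s_at read 908.6 and 1476 in control, 1329 and 2021 after fraction 1 and 971.2 and 1414 after fraction 2, with log2 fold changes of 0.49 ± 0.31 for fraction 1 and 0.02 for fraction 2. Its suffix marks a probe set that may also detect related transcripts. Probe set 1448306_at read 1076 and 1588, 1156 and 1254, and 779.8 and 1241 in the same order, with changes of -0.12 and -0.40. Probe set 1420089_at read 173.5 and 356.8, 354.3 and 387.8, and 201.3 and 310.6, with changes of 0.54 and 0.00. Adjusted p for these changes ran from 0.568 to 0.998. Control replicate 1 was the lower control array in all 4 probe sets.

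Tnfaip3 (A20), the feedback enzyme that removes activating ubiquitin chains, read 38.2 and 121.3 array units in control. It read 94.1 and 97.7 after fraction 1 and 61.3 and 133 after fraction 2. Both fraction 1 arrays lay between the controls, and the control arrays alone differed by more than any pair of group means. The gene reached the 40th percentile on 2 arrays only, control replicate 2 and fraction 2 replicate b, and so passed the filter by these. The log2 fold change was 0.38 ± 0.55 (SE) for fraction 1, with an interval of -0.88 to 1.63 (adjusted p = 0.853). It was 0.32 for fraction 2 (interval -0.94 to 1.57, adjusted p = 0.909) and 0.06 between the fractions (-1.20 to 1.32). Values this low are compressed by the constant of 16 added before the logarithm, which understates their changes.

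**Figure D2:**
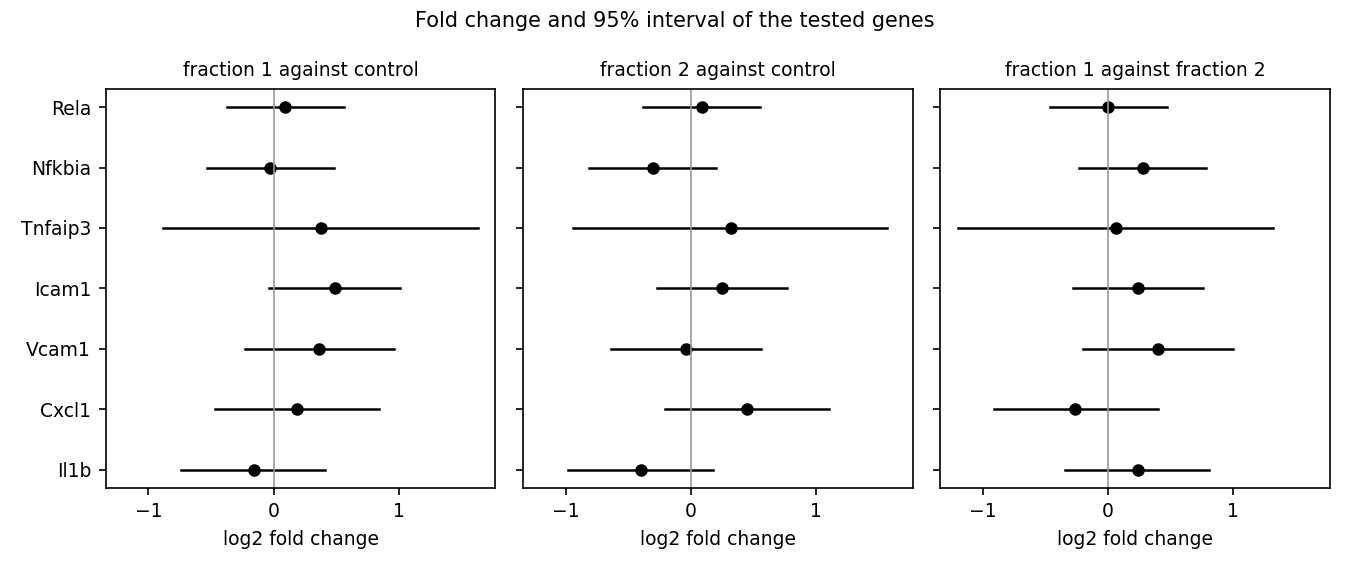
Log2 fold change of each of the 7 tested genes in the 3 comparisons, as points, with lines for the 95% interval of limma. Every interval includes 0, that of Icam1 for fraction 1 only narrowly (-0.04 to 1.01), and the intervals of Tnfaip3 are the widest.

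Icam1 encodes an adhesion molecule through which leukocytes attach to endothelium and to hepatocytes. Its signal was 225.8 and 294.2 array units in control, 398.6 and 338.9 after fraction 1 and 277.5 and 344.7 after fraction 2. Both fraction 1 arrays lay above both controls, and fraction 2 overlapped each of the other groups. The log2 fold change for fraction 1 was 0.49 ± 0.23 (SE), with an interval of -0.04 to 1.01 (adjusted p = 0.44 with limma). Over 16 alternative settings it ran from 0.31 to 0.67, with adjusted p from 0.225 to 0.886. For fraction 2 it was 0.25 (-0.27 to 0.77, adjusted p = 0.829), and between the fractions 0.24 (-0.28 to 0.76). Means were 260 ± 48.4 in control, 311 ± 47.5 after fraction 2 and 369 ± 42.2 after fraction 1 (SD, n = 2), and no step in this order passed the test.

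Vcam1, the adhesion molecule of activated endothelium that binds integrins of monocytes and lymphocytes, had 3 probe sets that disagreed. Probe set 1448162_at, highest in mean log2 signal, read 146.9 and 179.7 array units in control, 198.5 and 230.1 after fraction 1 and 134.8 and 184.6 after fraction 2. There the fraction 1 arrays lay above all others. Its log2 fold change was 0.36 ± 0.26 (SE) for fraction 1 (interval -0.23 to 0.96, adjusted p = 0.641), -0.04 for fraction 2 (-0.64 to 0.56) and 0.40 between the fractions (-0.20 to 1.00, adjusted p = 0.707). Its means were 163 ± 23.2, 214 ± 22.3 and 160 ± 35.2 array units (SD, n = 2) for control, fraction 1 and fraction 2.

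Probe set 1415989_at of Vcam1 read 217.9 and 176.3 in control, 185.7 and 173.1 after fraction 1 and 173.3 and 127.2 after fraction 2. Here fraction 1 was not above control, with a log2 fold change of -0.12 (adjusted p = 0.912), and fraction 2 stood at -0.37 (adjusted p = 0.797). Probe set 1451314_a_at read 24.6 and 411.5, 198.2 and 372.5, and 151.2 and 28.5. Its highest array was 16.7 times its lowest, and both were control arrays, so its change of 1.13 ± 1.01 (SE) for fraction 1 (adjusted p = 0.719) was about the size of its error. Across the 6 arrays, the pairs of Vcam1 probe sets had correlations of -0.28 to 0.46, while those of Nfkbia had 0.65 to 0.94.

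**Figure D3:**
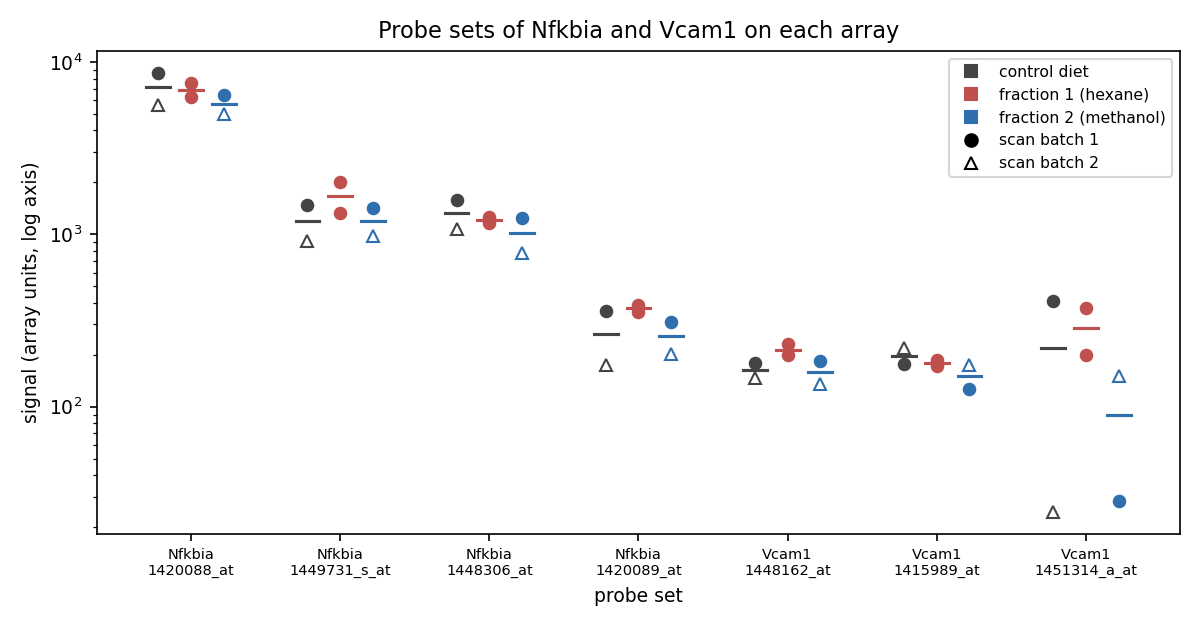
Signal in array units on a log axis for the 4 probe sets of Nfkbia and the 3 of Vcam1, 1 point per array (circles for scan batch 1, open triangles for scan batch 2), with bars at the means of 2 arrays. The batch 2 array is the lower of its group in all 4 probe sets of Nfkbia, and fraction 1 has the highest mean in 2 of the 3 probe sets of Vcam1 but not in 1415989_at.

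In the 3 comparisons, genes whose arrays did not overlap between groups were no larger a share than among all genes. For fraction 1 against control they were 2 of 7, Icam1 and Vcam1, both higher, where 41.9% of all tested genes were apart. For fraction 2 against control they were 2 of 7, Rela higher and Il1b lower, where 36.2% of all genes were apart. Between the fractions 1 of 7 was apart, Vcam1, higher after fraction 1, where 47.9% of all genes were.

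Ccl2 encodes the chief chemokine that draws monocytes into tissue. It was dim, below the 40th percentile on all 6 arrays. In control it stood at 43.5 and 30.6 array units. It read 7.6 and 17 after fraction 1 and 35.9 and 62.1 after fraction 2. Both fraction 1 arrays lay below the other 4 arrays, at signals near or under the added constant of 16. In a fit with no filter on dim probe sets the log2 difference was -0.92 for fraction 1 against control (unadjusted p = 0.0365, adjusted p = 0.442 with limma) and 0.27 for fraction 2 (adjusted p = 0.896). Between the fractions it was -1.19 (unadjusted p = 0.012, adjusted p = 0.569). None of these passed the adjusted threshold.

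Cxcl1 encodes a chemokine that attracts neutrophils and is made by hepatocytes, endothelium and macrophages on stimulation. Its signal was 317.1 and 493.4 array units in control, 383.1 and 536 after fraction 1 and 459.8 and 646.3 after fraction 2. Every pair of groups overlapped, and the arrays of each group lay farther apart than any pair of group means. The log2 fold change was 0.19 ± 0.29 (SE) for fraction 1 (interval -0.47 to 0.84, adjusted p = 0.859) and 0.45 for fraction 2 (-0.21 to 1.10, adjusted p = 0.789). Between the fractions it was -0.26 (-0.91 to 0.40). The value for fraction 2 ran from 0.14 without control replicate 1 to 0.75 without control replicate 2, and was 0.21 without fraction 2 replicate b. From lowest to highest, means were 405 ± 125 in control, 460 ± 108 after fraction 1 and 553 ± 132 after fraction 2 (SD, n = 2), with no step beyond the spread.

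Il1b encodes interleukin-1 beta, a cytokine of activated macrophages and neutrophils. Its signal was 216 and 244.3 in control, 184.7 and 223.6 after fraction 1 and 201.9 and 143.1 after fraction 2. Fraction 1 overlapped control, and both fraction 2 arrays lay below both controls. The log2 fold change was -0.16 ± 0.25 (SE) for fraction 1 (interval -0.74 to 0.41, adjusted p = 0.861) and -0.40 for fraction 2 (-0.98 to 0.18, adjusted p = 0.787). Between the fractions it was 0.24 (-0.34 to 0.81, adjusted p = 0.807). Means were 230 ± 20, 204 ± 27.5 and 172 ± 41.6 array units (SD, n = 2) for control, fraction 1 and fraction 2.

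Tnf encodes tumour necrosis factor, the cytokine that both triggers the pathway and is made by it. It was too dim to be tested and read 12.9 and 35.3 array units in control, 22.1 and 22 after fraction 1 and 14 and 61.2 after fraction 2. Control replicate 1 was the lowest of the 6 arrays and fraction 2 replicate b the highest, and the groups overlapped. With no filter the log2 differences were -0.02 for fraction 1 and 0.32 for fraction 2 (adjusted p = 0.996 and 0.913 with limma), and -0.34 between the fractions (adjusted p = 0.902).

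As a list, the 7 tested genes had a median log2 fold change of 0.19 for fraction 1, where the median of all 9209 genes was -0.03. For fraction 2 the medians were 0.09 and -0.05, and between the fractions 0.24 and 0.02. The median size of change, without its sign, was 0.19 for the 7 genes and 0.23 for all genes after fraction 1. After fraction 2 these sizes were 0.30 and 0.21, and between the fractions 0.24 and 0.22. The median standard error of 0.24 over all genes was of the same size. The list median for fraction 1 rests on both controls, while fraction 1 was scanned in batch 1 alone. Against the batch 1 control array, Nfkbia (-0.33), Tnfaip3 (-0.30), Cxcl1 (-0.12) and Il1b (-0.25) stood below 0. Icam1 (0.31), Vcam1 (0.23) and Rela (0.07) stood above 0.

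The arrays were scanned in 2 batches, and several of these genes were lower in the same batch. Control replicate 1 and fraction 2 replicate a formed batch 2, the other 4 arrays batch 1, and fraction 1 lay in batch 1 alone. In both pairs, batch 2 was the lower array for 5 of 7 genes, Nfkbia, Tnfaip3, Icam1, Vcam1 and Cxcl1, and for 36.1% of all tested genes. The log2 difference of batch 2 minus batch 1 was -0.62 in control and -0.35 in fraction 2 for Nfkbia. It was -1.34 and -0.95 for Tnfaip3 and -0.61 and -0.48 for Cxcl1. Smaller differences stood for Icam1 (-0.36 and -0.30) and Vcam1 (-0.26 and -0.41), while Rela (-0.04 and 0.11) and Il1b (-0.17 and 0.45) had opposite signs. The medians over all genes were -0.09 and -0.03. Batch 2 coincided with chip lot 2, so scan and lot cannot be told apart in these pairs.

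**Figure D4:**
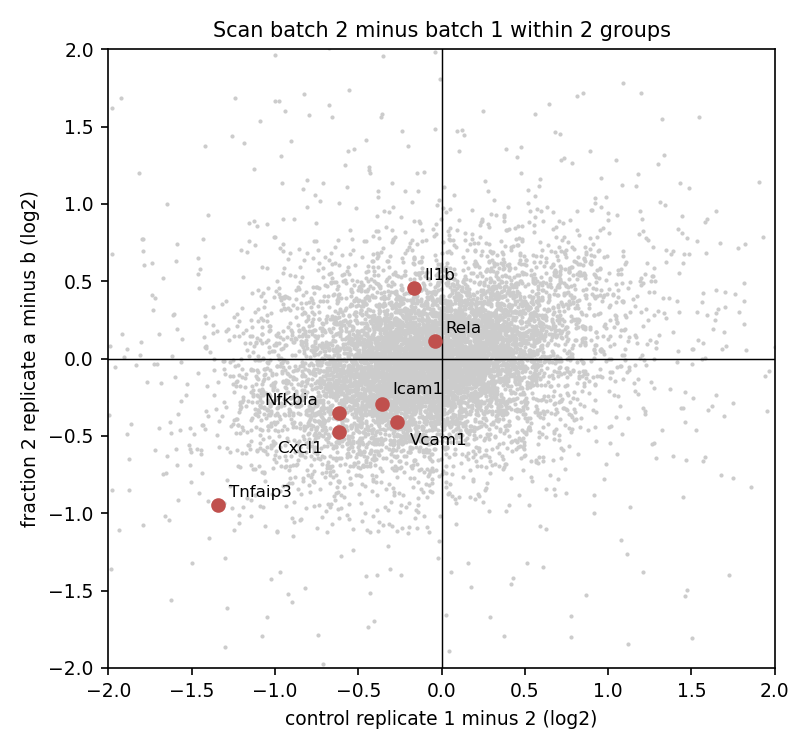
Log2 difference of the batch 2 array minus the batch 1 array in control (horizontal) and in fraction 2 (vertical), with the 7 tested genes in red and all other tested genes in grey; 95 genes outside the plotted range are not drawn. Nfkbia, Tnfaip3, Icam1, Vcam1 and Cxcl1 lie at the lower left.

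Within batch 1, where fraction 1 was set against control replicate 2 alone, Icam1 stood at 0.31, Vcam1 at 0.23 and Rela at 0.07 on the log2 scale. Nfkbia stood at -0.33, Tnfaip3 at -0.30, Cxcl1 at -0.12 and Il1b at -0.25. For Tnfaip3 and Cxcl1 this is the opposite sign to the pooled 0.38 and 0.19. For fraction 2 the single pairs within batch 1 and batch 2 were -0.43 and -0.17 for Nfkbia, 0.38 and 0.51 for Cxcl1, 0.22 and 0.28 for Icam1 and -0.71 and -0.09 for Il1b. Control replicate 2 also stood apart in RNA quality: the ratio of 3′ to 5′ actin signal was 3.87 there, against 2.13 to 2.64 on the other 5 arrays. How far scan batch or RNA quality contributed to the values of single genes was not tested.

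Other genes of the pathway came from lists of 93 genes, of which 83 had a probe set and 60 were tested. After fraction 1, 1 of 60 passed, Gadd45b, a stress-response gene that restrains JNK signalling downstream of NF-kB. After fraction 2 and between the fractions 0 of 60 passed. The shares over all tested genes at this adjusted threshold were 0.738%, 0.119% and 0% in the 3 comparisons. At an unadjusted p under 0.05 with limma there were 11, 5 and 9 of 60, where the shares over all tested genes were 12.9%, 7.23% and 7.96%. Groups did not overlap for 26, 25 and 35 of 60, where the shares over all genes were 41.9%, 36.2% and 47.9%. The median of the 60 was 0.03, -0.05 and -0.04 in the 3 comparisons.

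Gadd45b read 101.3 and 100.6 array units in control, 431.5 and 526.6 after fraction 1 and 223 and 164.6 after fraction 2 on probe set 1449773_s_at. Both fractions lay above control on these arrays, fraction 1 above fraction 2. On this probe set Gadd45b rose by 2.08 ± 0.24 (SE) on the log2 scale after fraction 1 (adjusted p = 0.0132 with limma). After fraction 2 it stood at 0.83 (adjusted p = 0.535). The suffix of the probe set marks one that may also detect related transcripts. Without fraction 1 replicate a adjusted p was 0.0579, and without replicate b 0.176. Without a filter it was 0.056, and without a variance trend 0.054. Probe set 1450971_at of the same gene read 12.7 and 19.1 array units in control, near the constant added before the logarithm. It read 286.7 and 467.4 after fraction 1 and 151.3 and 39.5 after fraction 2. It passed the filter only by treated arrays, where it was high. Its value of 3.59 after fraction 1 (adjusted p = 0.0366 with limma) therefore depends on the filter and is given as a description. Probe set 1420197_at stood at -0.14 (adjusted p = 0.901).

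Of 14 tested receptors and adaptors none passed, and their median was -0.03 after fraction 1 and -0.06 after fraction 2. Il1rap, the shared chain of the interleukin-1 receptor, read 2594 and 2122 in control, 1631 and 1038 after fraction 1 and 2317 and 2158 after fraction 2. Its fraction 1 arrays lay below the other 4, at -0.84 ± 0.23 against control (adjusted p = 0.171). Tnfrsf1a, the main receptor for tumour necrosis factor, read 2083 and 2370, 1949 and 2341, and 1837 and 1596 in the same order. The fraction 2 arrays were lowest, at -0.37 (adjusted p = 0.747). Irak1, a kinase that relays signals from the interleukin-1 and Toll-like receptors, stood at 0.51 after fraction 1 (adjusted p = 0.382) and 0.41 after fraction 2 (adjusted p = 0.751).

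Of 8 tested kinases of the pathway none passed, with medians of 0.12 and 0.08. Ikbkg (NEMO), the regulatory subunit of the IkB kinase complex, read 890.1 and 889 in control, 1319 and 1337 after fraction 1 and 984.1 and 1033 after fraction 2. The 3 groups were apart in the order control, fraction 2, fraction 1, with 0.57 ± 0.17 for fraction 1 against control (adjusted p = 0.2). The catalytic subunit Ikbkb stood at -0.19 (adjusted p = 0.739) and -0.08, and Tab2, an adaptor of the upstream kinase TAK1, at 0.17 and -0.01. Of the other NF-kB subunits, Rel and Relb were too dim. Nfkb2, the precursor of p52, read 54.8 and 84 in control, 95.4 and 99.9 after fraction 1 and 114.9 and 139.6 after fraction 2. It stood at 0.43 and 0.76 (adjusted p = 0.706 and 0.747 with limma). Nfkb2 reached the 40th percentile on the fraction 2 arrays alone, where it was highest, and so passed the filter only by these. Its value for fraction 2 therefore depends on the filter and is given as a description.

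Of 9 tested further inhibitors and feedback genes none passed, with medians of -0.17 and -0.05. Rnf11 and Tax1bp1, partners of A20, stood at 0.38 and 0.21 after fraction 1 (adjusted p = 0.519 and 0.703). After fraction 2 they stood at 0.54 and 0.28 (adjusted p = 0.673 and 0.787). The IkB family member Nfkbib stood at -0.06 and -0.23.

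Of 21 target chemokines and cytokines 11 were tested and none passed, with medians of -0.21 and -0.12. The other 10 were too dim: Ccl3, Ccl7, Ccl20, Cxcl2, Cxcl5, Il6, Il1a, Csf2, Csf3 and Ltb. Il1rn, the natural antagonist of interleukin-1, read 219 and 341.5 in control, 150.4 and 185.2 after fraction 1 and 237.4 and 268.9 after fraction 2. Its fraction 1 arrays were lowest, at -0.66 ± 0.26 against control (adjusted p = 0.351). Il18 stood at -0.58 and -0.56 (adjusted p = 0.387 and 0.726), and the macrophage growth factor Csf1 at -0.06 and -0.34.

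Of 17 tested adhesion, survival and effector genes 1 rose after fraction 1, Gadd45b, with medians of 0.19 and -0.04 for the list. Cebpb, a transcription factor of the acute phase response, read 1553 and 955.2 in control, 2749 and 3139 after fraction 1 and 1583 and 1681 after fraction 2. Its fraction 1 arrays were highest, at 1.26 ± 0.24 (adjusted p = 0.0659 with limma). Within scan batch 1, and likewise without control replicate 1, Cebpb stood at 1.60. Both settings leave control replicate 2, the lower control array for this gene, as the only control, so they are not separate evidence. Sod2, the mitochondrial superoxide dismutase, stood at 0.19 and -0.04. Irf1, a transcription factor of interferon signalling, read 1109 and 1161 in control, 766.7 and 759.9 after fraction 1 and 1014 and 988.4 after fraction 2, at -0.56 ± 0.17 after fraction 1 (adjusted p = 0.214).

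**Figure D5:**
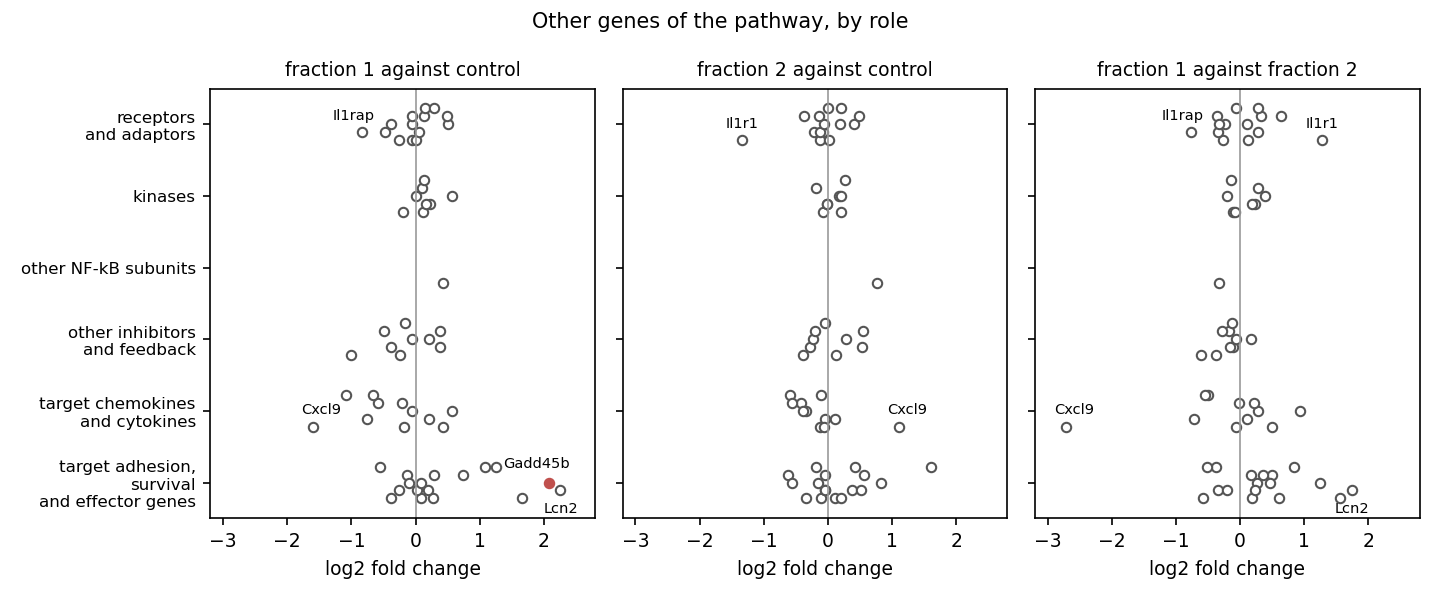
Log2 fold change of the 60 other tested pathway genes in the 3 comparisons, grouped by role, with the gene past the threshold filled in red and all others open. Gadd45b after fraction 1 is the filled point, at 2.08; of the points with a name, Lcn2, Cxcl9 and Il1r1 were picked after their values were seen.

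Markers of the cell types that make these mediators were read on the same arrays. Whole-liver RNA cannot tell fewer cells of a type from less RNA per cell. Hepatocyte markers were bright on every array: albumin (Alb) read 18755 to 27250 array units, and all 7 measured markers were tested. Their summed signal was 123604 and 137641 in control, 117614 and 106116 after fraction 1 and 102942 and 98883 after fraction 2, below both controls in each fraction. Cps1 and Asgr1, picked after their values were seen, did not follow this sum throughout. Cps1 read 13742 and 15194 in control and 15834 and 15215 after fraction 1. Asgr1 after fraction 2 (4745 and 4847) lay between its controls (5284 and 4032). The summed signal of 11 Kupffer cell and macrophage markers, a source of Il1b and Tnf, was 9544 and 10517 in control, 8413 and 9241 after fraction 1 and 9326 and 9953 after fraction 2. The sum of 10 endothelial markers, beside Icam1 and Vcam1, was 6315 and 7764 in control, 5404 and 5141 after fraction 1 and 6008 and 6525 after fraction 2. Both sums were lowest in fraction 1, but not every marker followed its sum. Marco read 135.1 and 137.3 in control and 202.4 and 185.4 after fraction 1, Cd163 read 178.7 and 146.8 against 194.8 and 275.1, and the endothelial Cdh5 had its highest value, 370.7, in fraction 1 replicate a. These 3 were picked after their values were seen.

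For stellate cells, 7 markers summed to 6571 and 5509 in control, 3967 and 3049 after fraction 1 and 5470 and 4264 after fraction 2. Reln, one of the brightest, followed this sum, while Dcn and Col1a1, picked after their values were seen, did not. Dcn read 3190 and 1373 in control and 1746 and 1287 after fraction 1. Col1a1 read 93.1 and 129.9 against 103.3 and 144.9. For neutrophils, 6 measured markers summed to 532 and 895, 1040 and 756, and 555 and 578, and the defining S100a8 and S100a9 were too dim to be tested. Markers of T and NK cells summed to 374 to 489, with Cd3e, Cd3d and Cd3g too dim. Those of B cells summed to 638 to 1168, lowest in control replicate 1 and highest in control replicate 2, and those of bile duct cells to 184 to 357. With limma, 0 tested markers of any list passed in any comparison, where the shares over all tested genes were 0.738%, 0.119% and 0%. Only 3 of 6 neutrophil, 2 of 8 T and NK cell and 1 of 4 bile duct markers were tested. For these lists the 0 covers few markers and does not show an unchanged cell makeup. The part of cell makeup in the values of the mediators was not tested.

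The genes closest to Tnfaip3 and Nfkbia over the 6 arrays were found by the correlation of log2 signal, as a description over few points that share scan and chip lot. For Tnfaip3, which had the widest range of the tested genes, these were Plac8 (r = 0.9887), Il1f10 (0.9843) and Pdk2 (0.9835). In all, 1.48% of 9208 genes had r above 0.9 with it. For Nfkbia they were Themis2 (0.9976), Siva1 (0.9972) and Phf19 (0.9932), and 3.59% of genes had r above 0.9. Themis2, a signalling adaptor of B cells and macrophages, read 146.6 and 257.6 in control, 166.5 and 219.5 after fraction 1 and 119.4 and 176.2 after fraction 2. Like Nfkbia, it was highest in control replicate 2 and lowest in fraction 2 replicate a.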

How the data were processed

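The authors deposited 1 signal intensity per probe set and array on a linear scale. How the signals were summarised is not given in the sources used here. Groups came from the sample titles and descriptions, and scan batch and chip lot from the deposited experiment files. The table held 22690 probe sets, of which 64 array controls were dropped; 20393 had 1 gene symbol in the platform annotation, 691 several and 1606 none. Testing needed a signal at or above the array's 40th percentile on 2 of 6 arrays or more. Each gene was represented by its tested probe set of highest mean log2 signal.

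Log2 of signal plus 16 was fitted over all 6 arrays in R 4.3.3 with limma 3.58.1 (lmFit, eBayes with trend; residual df 3, prior df 5.43). Two-sided p-values were adjusted by Benjamini-Hochberg over 14755 probe sets, with a threshold of 0.05. The procedure was tested on simulated data with independent errors. These held no effect of scan batch, chip lot or RNA quality, so the simulation says nothing of such effects here. The number of arrays limits the precision.

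All 9 genes with a probe set were named, with every probe set of their symbol alone. Of the other pathway genes, the rule named those past the threshold and the 3 brightest of each list. The members and lists were chosen with earlier results of these data known. Alternatives were quantile normalization, median centring, pseudocounts of 1 and 64, no filter or one at the 60th percentile, eBayes without the trend, scan batch or chip lot as a block, batch 1 alone, other probe sets, each array left out and the replicate letter as a block. Promoter windows came from RefSeq. Plots used matplotlib 3.10.9 in Python 3.11.15.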

Additional observations from a re-analysis of the deposited data

How the results depend on the processing

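In every alternative run, 0 of the 7 tested genes passed the threshold, and the lowest adjusted p was 0.178. Of 349 log2 fold changes under alternatives, 315 kept their direction and 34 changed sign. Part of the 349 could not change sign. The filters, the variance trend and leaving out an array outside the comparison do not alter a fold change. Scan batch as a block does not alter those of fraction 2 against control. The count of 315 is therefore no measure of stability. For fraction 1 against control, Tnfaip3 turned to -0.20 with scan batch as a block, -0.30 in batch 1 alone and -0.17 with chip lot as a block, and Cxcl1 to -0.08, -0.12 and -0.15. Other probe sets turned Nfkbia to 0.49 and 0.54 and Vcam1 to -0.12. With each array left out in turn, Nfkbia ran from -0.33 to 0.28, Tnfaip3 from -0.30 to 1.05, Rela from -0.13 to 0.31, Vcam1 from 0.23 to 0.50 and Cxcl1 from -0.12 to 0.49. For fraction 2 against control, Vcam1 turned to 0.07 with quantile normalization, 0.08 with median centring and 0.04 in batch 1 alone, Rela to -0.03 with chip lot as a block and Nfkbia to 0.02 on another probe set. With an array left out, Nfkbia ran from -0.61 to 0.01, Tnfaip3 from -0.36 to 0.99, Rela from 0.03 to 0.14 and Vcam1 from -0.24 to 0.17. Between the fractions, Tnfaip3 turned to -0.04 with quantile normalization, -0.02 with median centring, -0.51 and -0.54 with scan batch or chip lot as a block and -0.41 in batch 1 alone, and Rela to -0.08 with median centring. With an array left out they ran from -0.41 to 0.53 and -0.21 to 0.22. The cause was not tested.

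The count of 1 other pathway gene after fraction 1 became 0 with no filter or no variance trend, 2 with scan batch or chip lot as a block and in batch 1 alone (Gadd45b and Cebpb), and 0 to 2 with an array left out. Without either fraction 2 array, the second gene was Lcn2. Between the fractions, 0 became 2 with the replicate letter as a block, Cxcl9 and Cebpd; Lcn2, Cxcl9 and Cebpd lie outside the naming rule and were chosen after their values were seen. Probe sets past the threshold between the fractions went from 2 to 75 with this replicate block, which left the fold changes of the 7 genes in place (Vcam1 at 0.40). The letters share only a label: the differences of replicate a minus b in the fractions had r = 0.0301 across probe sets. With the filter at the 60th percentile, Tnfaip3, Il1b and the Vcam1 probe set that stood for the gene were not tested.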

Other observations

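Some pathway genes outside the naming rule stood far from 0 and were chosen after their values were seen. Lcn2, which encodes an iron-scavenging acute phase protein, read 251.5 and 274.6 array units in control, 1036 and 1687 after fraction 1 and 167.8 and 848.9 after fraction 2. Its fraction 1 arrays were above all others, at 2.26 ± 0.60 on the log2 scale against control (adjusted p = 0.157 with limma), and the fraction 2 arrays lay on both sides of control. Cxcl9, a chemokine of interferon-gamma signalling that attracts T cells, read 176 and 72.9 in control, 39.8 and 17.1 after fraction 1 and 258.1 and 274.6 after fraction 2. The 3 groups were apart, with -1.60 for fraction 1 (adjusted p = 0.192), 1.11 for fraction 2 (adjusted p = 0.703) and -2.72 between the fractions (adjusted p = 0.2).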
